A study of Mus musculus with 10 samples.

Results

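Transcription factors that set T cell fate were examined in spleen CD3+ T cells of Nf1OPG mice, in which experimental asthma was induced with ovalbumin (OVA) or which received PBS as the control. The set held 10 genes chosen by name (Gata3, Eomes, Bcl6, Batf, Bhlhe40, Bach2, Foxo1, Foxp1, Ets1 and Bcl11b) out of 20617 genes in the count table, and all 10 had values. None of the 10 passed the test across all genes. Ets1 was lower and Gata3 and Eomes were higher in the OVA libraries at an unadjusted p below 0.05, and the values of both groups overlapped for every one of the 10 genes.

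Bulk RNA sequencing gave 5 PBS libraries (replicates 1 to 5) and 5 OVA libraries (replicates 6 to 10). All mice, controls included, were Nf1 flox/mut; GFAP-Cre animals on a C57BL/6 background. The flox/mut genotype leaves a single working Nf1 copy in every cell, T cells of both groups included, and Cre under the GFAP promoter removes that copy in neuroglial progenitors. OVA mice were sensitized by intraperitoneal ovalbumin in aluminum hydroxide on days -14 and -7, and the study's methods then add intranasal ovalbumin. The age of the mice is not given in the labels. The labels name the cells CD3+, while the isolation protocol names CD4 and CD8a kits, and nothing states whether a library held 1 mouse or several. The sex-linked reads given below bear on this for OVA replicates 6, 7 and 8, but whether these libraries pool mice was not tested. The p-values below therefore measure the spread between libraries, which may be partly technical.

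A naive T cell keeps a resting program until antigen and cytokines push it into an effector, memory or helper fate. Gata3 drives the type 2 helper fate that underlies allergic asthma, Eomes the cytotoxic and memory fate, and Bcl6 the follicular helper fate. Batf and Bhlhe40 act in activated cells, Bach2, Foxo1 and Foxp1 hold cells in the resting state, and Ets1 and Bcl11b maintain T cell identity.

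The values are normalized counts, that is, reads divided by the size factor of the library. In the deposited table the gene names are out of step with the values. The values of Bach2, Batf, Bcl6, Bcl11b and Bhlhe40 stood 3 rows above their names, and those of Eomes, Ets1, Foxo1, Foxp1 and Gata3 stood 7 rows above. A model that compared the values with the expression expected from each name's annotation, without use of the groups, placed all 10 genes at those distances. Its probability was 0.950 for Eomes, 0.986 for Ets1 and at least 0.999 for the other 8. A looser model, in which the distance could change freely along the table, kept the same distances with 0.808 for Eomes and 0.9635 for Ets1. The mean level of Ets1 at its placed row was 17837 normalized counts, between 60.7 in the row above and 156 in the row below. For Eomes the rows above and below held 107 and 240 normalized counts against 288 at the placed row, so that its placement rests less on a step in level. The same holds for Foxo1, with 2007 above and 1303 below against 1381 at the placed row. The row below Bcl11b was higher than its own, at 4280 against 1904.

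Depth ran from 6835696 reads in PBS replicate 3 to 29915782 in OVA replicate 7, with group medians of 20932001 (PBS) and 21699538 (OVA). No value of the 10 genes rested on fewer than 55 reads. The 10 T cell markers were detected in every library, with summed levels of 80811 to 148853 normalized counts in PBS and 97764 to 132121 in OVA, and 0 of 10 reached an unadjusted p of 0.05. Markers of other cells were present too, at levels that differed between libraries and, for some, between groups. B cell markers summed to 787 to 2367 in PBS and 856 to 6186 in OVA, with 4 of 8 higher at an unadjusted p below 0.05, and germinal center and plasma cell markers summed to 15827 to 91880 in PBS and 9565 to 28908 in OVA, with 1 of 7 higher and 3 lower. Neutrophil markers summed to 9309 to 29586 in PBS and 12556 to 75785 in OVA (2 of 8 higher), erythroid markers to 9924 to 54460 and 2820 to 26054 (2 of 8 lower), macrophage, monocyte and dendritic cell markers to 1152 to 6144 and 1016 to 10682 (1 of 8 higher), and NK cell markers to 1620 to 2409 and 1687 to 2674 (0 of 5). Stromal markers summed to 12.05 to 74.8 in PBS and 120 to 221 in OVA, with 8 of 9 higher. The lowest p was in Dcn, Serping1, Col3a1 and Pdgfrb. Dcn, Serping1 and Col3a1 lay near the low end of what these libraries measure. Their means were 0.55, 0.83 and 1.44 in PBS and 20.4, 9.42 and 14.9 in OVA. Col6a1 was at 0 in all PBS libraries and in OVA replicates 9 and 10. Over all rows, 7.12% were higher and 2.65% lower at an unadjusted p below 0.05. PBS replicate 3 held the lowest T cell sum and the highest erythroid and germinal center and plasma cell sums. Jchain alone held 86297 of the 91880 normalized counts of the latter sum. Mzb1 was highest in PBS replicate 1 (3430 against 3240 in PBS replicate 3) and Sdc1 in PBS replicate 2 (323 against 130). OVA replicate 6 held the highest B cell and neutrophil sums. OVA replicate 10 had 0 reads of the Y-linked genes Ddx3y, Eif2s3y and Uty, which all other libraries expressed. Xist, placed with a probability of 0.734, was at 369 to 656 normalized counts in OVA replicates 6, 7, 8 and 10. In the other 6 libraries Xist was at 0 to 4.30. High Xist was thus confined to OVA libraries. OVA replicate 9 was the only OVA library with low Xist, at 3.60, and it had Ddx3y at 960. With 1 such library, this sex-linked difference cannot be told apart from the treatment. OVA replicates 6, 7 and 8 held Xist and Y-linked reads together, with Ddx3y at 496, 356 and 578 normalized counts. The part of these differences in the results below was not tested, beyond the values given without PBS replicate 3, OVA replicate 6 and OVA replicate 10 and those scaled to the T cell markers. The fit without those libraries still holds OVA replicates 7 and 8, where Xist was high.

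Promoter windows from RefSeq (GRCm38.p6), 250 bases before to 50 after a transcript start, were found for 8 of the 10 genes, and Ets1 and Bhlhe40 had none. Gata3 and Eomes are shown because they had the lowest p-values among genes with a window, and Batf and Bach2 because their windows held the ETS or GATA letters that were searched. Capitals mark the ETS core CCGGAAG or the GATA letters AGATAA on either strand. The Gata3 window is chr2:9878551-9878850 (minus strand), the Eomes window chr9:118477939-118478238 (plus strand), the Batf window chr12:85686470-85686769 (plus strand) and the Bach2 window chr4:32417185-32417484 (plus strand), each written 5′ to 3′ along the gene. The Gata3 and Bach2 windows belong to transcript starts inside the span of the annotated gene.
Gata3: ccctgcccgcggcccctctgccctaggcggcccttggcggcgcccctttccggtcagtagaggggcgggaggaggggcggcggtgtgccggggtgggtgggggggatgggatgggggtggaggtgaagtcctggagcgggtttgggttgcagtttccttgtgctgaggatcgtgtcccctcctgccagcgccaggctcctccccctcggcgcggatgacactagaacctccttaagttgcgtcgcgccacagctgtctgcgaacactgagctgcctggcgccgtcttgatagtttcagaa
Eomes: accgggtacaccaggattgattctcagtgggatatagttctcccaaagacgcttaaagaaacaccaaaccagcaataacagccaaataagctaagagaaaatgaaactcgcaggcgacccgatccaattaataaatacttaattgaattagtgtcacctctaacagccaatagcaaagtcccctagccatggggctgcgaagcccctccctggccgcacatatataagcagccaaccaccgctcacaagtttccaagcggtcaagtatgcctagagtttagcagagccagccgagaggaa
Batf: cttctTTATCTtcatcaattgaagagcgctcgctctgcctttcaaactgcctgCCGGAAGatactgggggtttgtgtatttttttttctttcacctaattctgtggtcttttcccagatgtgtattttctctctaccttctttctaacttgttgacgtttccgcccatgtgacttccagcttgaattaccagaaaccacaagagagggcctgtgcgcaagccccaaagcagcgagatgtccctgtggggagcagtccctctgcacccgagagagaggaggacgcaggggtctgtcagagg
Bach2: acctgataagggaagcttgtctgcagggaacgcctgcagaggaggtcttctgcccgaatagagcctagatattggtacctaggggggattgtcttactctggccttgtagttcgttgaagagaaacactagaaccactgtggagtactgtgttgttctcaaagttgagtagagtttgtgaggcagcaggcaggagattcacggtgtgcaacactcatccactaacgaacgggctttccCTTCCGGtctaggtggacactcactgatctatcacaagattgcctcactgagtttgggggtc

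The ETS core stood in the windows of Bach2 and Batf, and in 8.86% of all 32851 windows. The GATA letters AGATAA stood in that of Batf and in 11.2% of all windows. Other letters around GATA were not searched and stay in lower case, such as tgataa in the Bach2 window and tgatag in the Gata3 window. A further 4 motifs were searched on both strands. The E-box CACGTG, of the kind Bhlhe40 binds, was present in 1 window of the 8 genes, from Bcl6, and in 7.15% of all windows. The 8 genes hold 11 windows, so that a count of genes is not on the scale of these shares. The forkhead letters TGTTTAC (3.65% of windows), the T-box letters TCACACC (3.98%) and the bZIP letters TGANTCA (7.81%) were in none of the 8. The capitalised stretches do not overlap each other, and a match is a description of the letters only.

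The first question was whether the factors that specify helper and cytotoxic fates differed between OVA and PBS T cells. Gata3 and Eomes were higher in 4 of 5 OVA libraries than in any PBS library, and Bcl6 was higher on average with wide overlap. Gata3 (chr2:9857078-9890034, minus strand, GRCm38) was at 1755, 1460, 1628, 1939 and 1906 normalized counts in PBS replicates 1 to 5, and at 2102, 2170, 2287, 2396 and 1776 in OVA replicates 6 to 10. OVA replicate 10 alone fell inside the PBS range. OVA replicate 9, the OVA library with low Xist, was the highest. The means were 1737 ± 199 (SD, n = 5) in PBS and 2146 ± 235 (SD, n = 5) in OVA, a 1.24-fold ratio. The log2 fold change was 0.31 with a standard error of 0.13 and a 95% interval of 0.04 to 0.57 (limma, adjusted p = 0.445), and the exact permutation test (two-sided, 5 against 5 libraries) gave p = 0.0238, where the smallest value the design allows is 0.00794. With libraries scaled to the T cell markers the difference in Gata3 was 0.32 and no longer at an unadjusted p below 0.05 (limma, adjusted p = 0.782), and without PBS replicate 3 and OVA replicates 6 and 10 it was 0.38 and still below it (limma, adjusted p = 0.4927). Without OVA replicate 9 alone the difference was 0.26, not at an unadjusted p below 0.05 (limma, adjusted p = 0.719).

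Eomes (chr9:118478212-118486132, plus strand), a T-box factor, was at 232, 293, 216, 282 and 235 normalized counts in the PBS libraries and at 317, 292, 360, 306 and 347 in the OVA libraries. The highest PBS library lay just above the lowest OVA library. The means were 251.8 ± 33.8 (SD, n = 5) and 324 ± 28.5 (SD, n = 5), and the log2 fold change was 0.37 with a standard error of 0.15 and an interval of 0.04 to 0.70 (limma, adjusted p = 0.446; exact permutation test, p = 0.0159). Without the 3 libraries that stood apart the difference was 0.29 (limma, adjusted p = 0.693), and scaled to the T cell markers it was 0.38 (limma, adjusted p = 0.790), in neither case at an unadjusted p below 0.05. Without OVA replicate 8 alone the difference was 0.33, also not at an unadjusted p below 0.05 (limma, adjusted p = 0.660).

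Bcl6 (chr16:23965052-23988852, minus strand), a repressor that germinal center B cells also express, was at 178, 250, 152, 258 and 327 normalized counts in PBS and at 328, 295, 265, 307 and 249 in OVA. PBS replicate 5 was nearly as high as the highest OVA library, while PBS replicates 1 and 3 lay below the whole OVA group. Its log2 fold change was 0.35 with an interval of -0.09 to 0.80 (limma, adjusted p = 0.595; exact permutation test, p = 0.167). Without PBS replicate 3 the difference in Bcl6 was 0.21, and without the 3 libraries that stood apart it was 0.22.

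**Figure D1:**
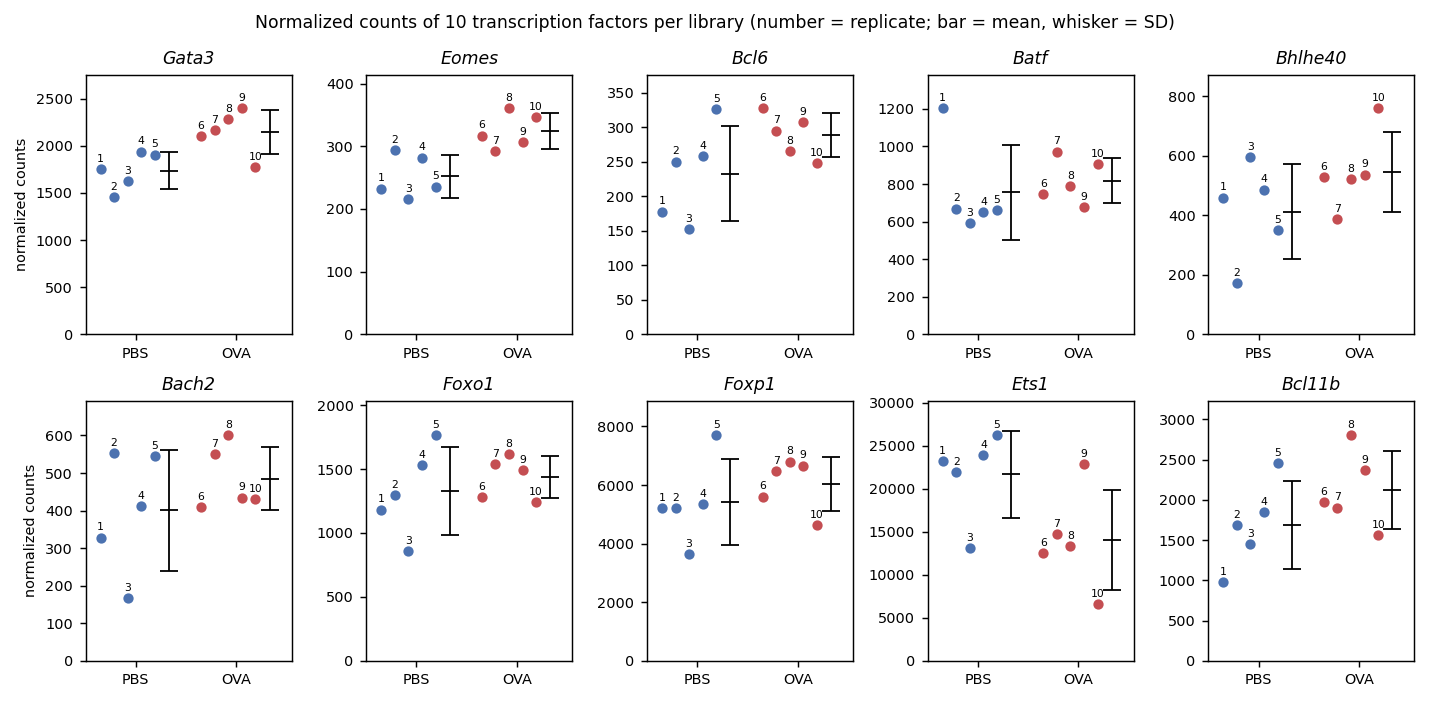
Normalized counts of the 10 transcription factors (vertical axes, from 0) in each PBS (blue) and OVA (red) library, with the replicate number at each point and the mean ± SD of 5 libraries beside the points. The groups overlap for every gene; Gata3, Eomes and Ets1 separate most, and PBS replicate 3 is the lowest library of 6 genes.

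Batf and Bhlhe40, factors of activated T cells, varied by library more than by group. Batf (chr12:85686669-85709087, plus strand), a bZIP protein that pairs with Jun family members, was at 1202, 670, 593, 652 and 663 normalized counts in PBS and at 744, 972, 791, 677 and 906 in OVA. PBS replicate 1 was the highest of all 10 libraries, and the other 4 PBS libraries lay below all 5 OVA libraries. The log2 fold change was 0.15 with an interval of -0.25 to 0.55 (limma, adjusted p = 0.822; exact permutation test, p = 0.476), and single libraries moved it in either direction. Without PBS replicate 1 the difference in Batf was 0.33 (limma, adjusted p = 0.457), at an unadjusted p below 0.05, while it was 0.08 without PBS replicate 3, 0.09 without OVA replicate 7 and 0.07 without the 3 libraries that stood apart.

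Bhlhe40 (chr6:108660629-108666925, plus strand), which supports cytokine production by helper cells, was at 460, 172, 595, 486 and 350 normalized counts in PBS and at 528, 387, 522, 537 and 759 in OVA. Its lowest value was in PBS replicate 2 and its highest in OVA replicate 10, with the other 8 libraries mixed. Its log2 fold change of 0.49, with an interval of -0.12 to 1.09, was the furthest above 0 of the 10 genes (limma, adjusted p = 0.595; exact permutation test, p = 0.198), and without PBS replicate 2 it was 0.20 (limma, adjusted p = 0.752).

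The factors of the resting state, Bach2, Foxo1 and Foxp1, had higher OVA means, and each difference shrank when PBS replicate 3 was left out. Bach2 (chr4:32238804-32586108, plus strand), a repressor of effector genes, was at 328, 553, 166, 412 and 545 normalized counts in PBS and at 409, 550, 602, 435 and 431 in OVA. PBS replicates 2 and 5 lay near the top of the OVA group, and PBS replicate 3 was far below all others. For Bach2 the log2 fold change was 0.38 with an interval of -0.21 to 0.97 (limma, adjusted p = 0.674; exact permutation test, p = 0.310), and 0.09 without PBS replicate 3 or 0.22 without the 3 libraries that stood apart.

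Foxo1 (chr3:52268336-52353221, plus strand), a forkhead factor that keeps homing and survival receptors on, was at 1183, 1295, 856, 1529 and 1768 normalized counts in PBS and at 1283, 1537, 1617, 1494 and 1243 in OVA. The PBS group spanned the whole OVA group. The log2 fold change was 0.15 with an interval of -0.23 to 0.52 (limma, adjusted p = 0.816; exact permutation test, p = 0.516), with 0.0004 without PBS replicate 3 and 0.26 without PBS replicate 5.

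Foxp1 (chr6:98925338-99522721, minus strand), another forkhead factor of quiescence, was at 5218, 5217, 3631, 5354 and 7718 normalized counts in PBS and at 5604, 6488, 6803, 6663 and 4637 in OVA. The lowest and the highest library were both PBS. The estimate for Foxp1 was a log2 fold change of 0.18 with an interval of -0.20 to 0.56 (limma, adjusted p = 0.771; exact permutation test, p = 0.413), with 0.05 without PBS replicate 3, 0.32 without PBS replicate 5 and 0.27 without OVA replicate 10.

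Of the factors of T cell identity, Ets1 had a lower and Bcl11b a higher mean in OVA. Ets1 (chr9:32636221-32757820, plus strand), an ETS factor that resting T cells express strongly, was at 23186, 21959, 13074, 23918 and 26260 normalized counts in PBS and at 12477, 14707, 13364, 22826 and 6595 in OVA. In each group 1 library lay among the other group: PBS replicate 3 was near the OVA values and OVA replicate 9 near the PBS values. OVA replicate 9 was also the only OVA library with low Xist, at 3.60 normalized counts. The OVA libraries with high Xist all had Ets1 at 14707 or less, and the part of this in the Ets1 difference was not tested. The means were 21680 ± 5059 (SD, n = 5) and 13994 ± 5830 (SD, n = 5), and the log2 fold change was -0.70 with a standard error of 0.27 and an interval of -1.29 to -0.11 (limma, adjusted p = 0.413; exact permutation test, p = 0.0794). OVA replicate 10 had the lowest value, and without it the difference was -0.46 and no longer at an unadjusted p below 0.05 (limma, adjusted p = 0.4932). It was -0.90 (limma, adjusted p = 0.389) without OVA replicate 9, -0.53 (limma, adjusted p = 0.475) without the 3 libraries that stood apart and -0.69 (limma, adjusted p = 0.544) scaled to the T cell markers, each at an unadjusted p below 0.05. The fit without OVA replicate 9 holds only OVA libraries with high Xist. In bulk RNA, fewer cells that express a gene and less of its RNA per cell cannot be told apart.

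Bcl11b (chr12:107910403-108003602, minus strand), a zinc finger protein needed for T lineage commitment, was at 976, 1690, 1454, 1847 and 2460 normalized counts in PBS and at 1975, 1902, 2809, 2373 and 1557 in OVA. PBS replicate 1 was the lowest and OVA replicate 8 the highest, with overlap between. The log2 fold change was 0.37 with an interval of -0.10 to 0.84 (limma, adjusted p = 0.602; exact permutation test, p = 0.206). Without PBS replicate 1 the difference in Bcl11b was 0.19.

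Across the set, 0 of 10 genes were called by limma at an adjusted p below 0.05, against 1 of 20249 rows or 0.00494% overall. That row, named here after its values were seen, is most probably Gm36933. At an unadjusted p below 0.05 there were 3 of 10 genes, against 9.77% of all rows. Gata3 and Eomes were the 2 higher ones, where 7.12% of all rows were higher, and Ets1 the lower one, where 2.65% were lower. None of the 10 had groups that did not overlap, against 1.78% of all rows. The edgeR quasi-likelihood test and DESeq2, run on the recovered whole reads, each gave 0 calls and 3 genes at an unadjusted p below 0.05. Over all rows edgeR called 0 of 15023 (8.73% at an unadjusted p below 0.05) and DESeq2 called 168 (0.883%; 9.13% at an unadjusted p below 0.05).

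The mean log2 value was higher in OVA for 9 of 10 genes, against 54.5% of all rows and 44.7% of the 9808 rows with a mean of at least 100 normalized counts. The median log2 fold change of the 10 genes was 0.33, against 0.04 over all rows and -0.03 over those 9808. Without PBS replicate 3 the median of the 10 was 0.15. These genes share the same libraries, so their common direction is not a set of separate observations. The 95% intervals of 7 genes included 0, and their upper ends ranged from 0.52 for Foxo1 to 1.09 for Bhlhe40, so the data leave room for differences up to that size.

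**Figure D2:**
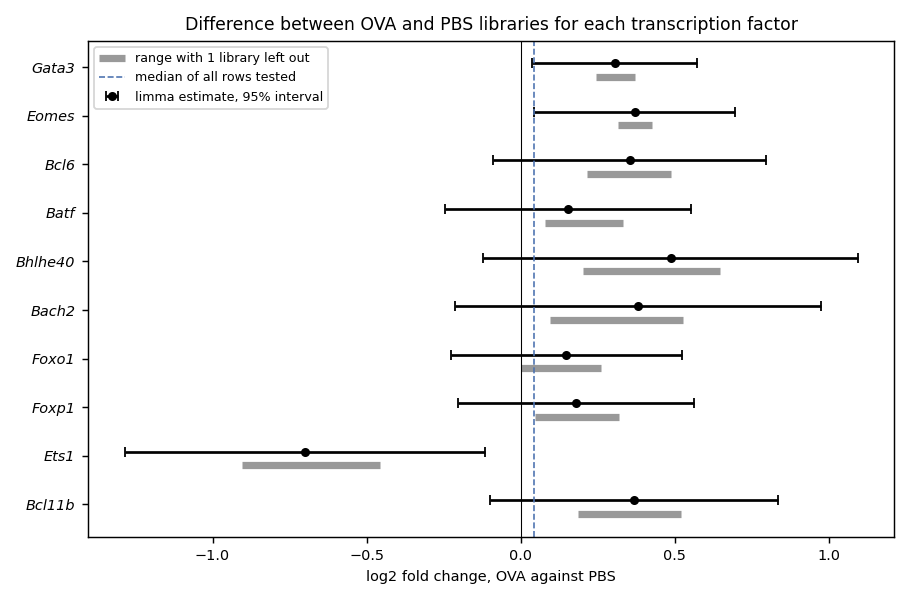
Log2 fold change of each transcription factor in OVA against PBS libraries (horizontal axis), with the limma estimate and its 95% interval (black), the range when 1 library was left out (grey) and the median of all rows tested (dashed). The intervals of Ets1, Gata3 and Eomes exclude 0, and 9 of 10 estimates lie above 0.

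The 10 genes spanned a wide range of levels per length. Divided by annotated exon length, the mean over 10 libraries was 2104 ± 773 normalized counts per kb (SD, n = 10) for Ets1, 560 ± 134 for Batf, 488 ± 74.8 for Gata3 and 417 ± 86.8 for Foxp1. The order went on with 235 ± 66.1 for Bcl11b, 159 ± 30.2 for Foxo1, 102 ± 33.2 for Bhlhe40, 69.4 ± 11.6 for Eomes, 44.6 ± 13.0 for Bach2 and 39.0 ± 8.77 for Bcl6. Ets1 stood above Batf, Foxp1 above Bcl11b and Eomes above Bach2 within all 10 libraries. Batf stood above Gata3 in 6 of 10 libraries, and Bach2 above Bcl6 in 7 of 10, so that these neighbours did not separate beyond their spread. Gata3 stood above Foxp1 and Foxo1 above Bhlhe40 in 8 of 10, and Bcl11b above Foxo1 and Bhlhe40 above Eomes in 9 of 10. Exon length counts every annotated exon, so that a gene with many transcript forms, such as Foxp1, has a lower level on this scale.

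**Figure D3:**
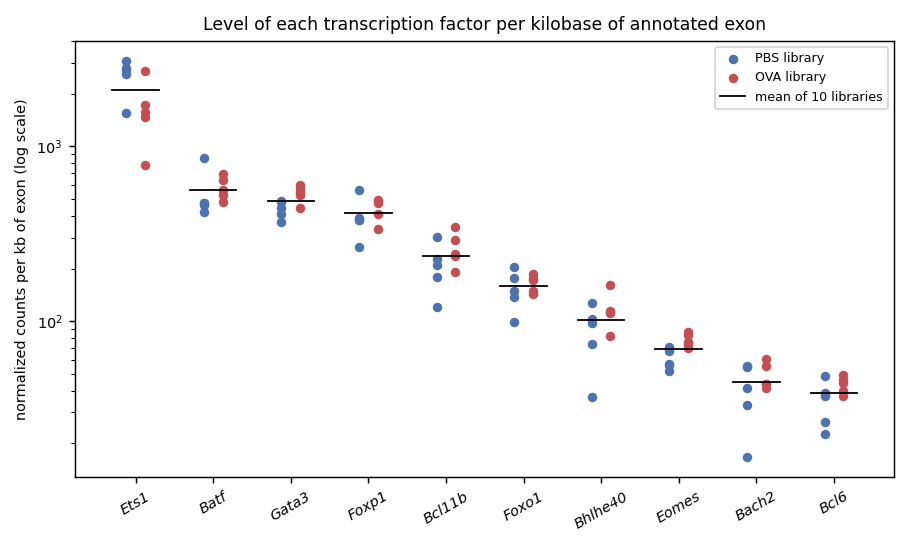
Level of each transcription factor in normalized counts per kb of annotated exon (vertical axis, log scale) in the PBS (blue) and OVA (red) libraries, with the mean of 10 libraries as a line. Ets1 stands at 2104 on average and Bcl6 at 39.0.

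The spread within a group followed particular libraries. PBS replicate 3, the shallowest, was the lowest of all 10 libraries for 6 genes and the lowest PBS library for 7. Its median deviation from the genes' own means was -0.39 on the log2 scale, and that of PBS replicate 5 was 0.37, where 3 genes had their highest value. OVA replicates 8 and 9 were above the mean for 9 of 10 genes each. OVA replicate 10 was the lowest OVA library for 6 genes. With the group means removed, Foxo1 and Foxp1 varied together over the 10 libraries (Pearson r = 0.93), as did Bach2 and Foxo1 (r = 0.87) and Bcl6 and Foxo1 (r = 0.83). Bach2 and Bhlhe40 varied in opposite directions (r = -0.70). The points share libraries, depth and cell composition, and these values are descriptions without a test.

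**Figure D4:**
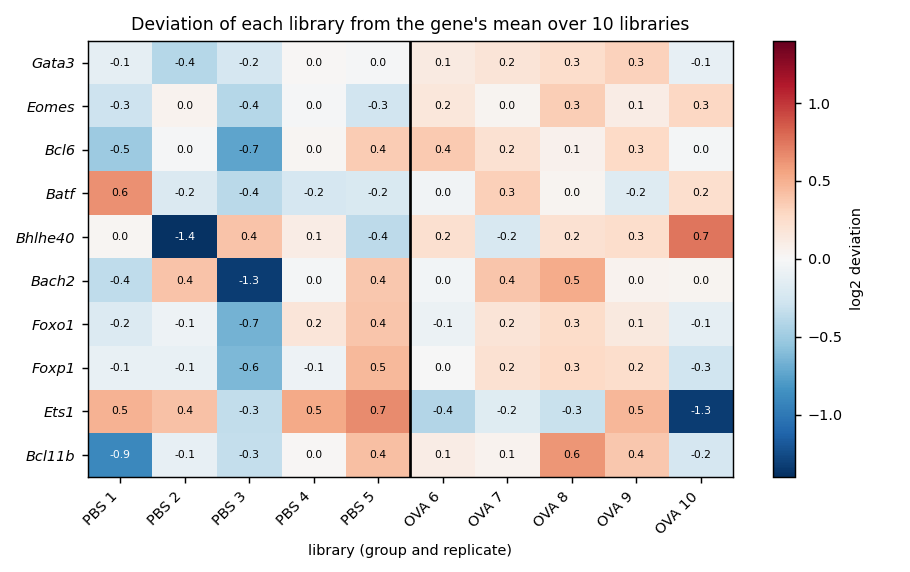
Log2 deviation of each library (columns; PBS left and OVA right of the line) from the mean of each transcription factor over 10 libraries (rows), red for above and blue for below. PBS replicate 3 is blue for 9 of the 10 genes, and in the row of Ets1 the red PBS cells face blue OVA cells except in PBS replicate 3 and OVA replicate 9.

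Among 8811 rows with a mean of at least 100 normalized counts and a firmly placed name, the profiles most like that of Ets1 over the 10 libraries were those of Csnk1g1 (Pearson r = 0.90), Crebl2 (r = 0.89) and Gosr1 (r = 0.88). Their log2 fold changes were -0.21, -0.20 and -0.11, smaller in size than that of Ets1.

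Other T cell fate factors were read beside the set. All 29 on the list were placed and tested, 0 were called by limma, and 2 were higher and 0 lower at an unadjusted p below 0.05, beside 7.12% higher and 2.65% lower over all rows. The higher ones were Ikzf2, which encodes Helios of regulatory T cells (log2 fold change 0.74 with a standard error of 0.28; limma, adjusted p = 0.387), and Id3, an inhibitor of E proteins (0.43 with a standard error of 0.20; limma, adjusted p = 0.504). Zeb1 (0.35; limma, adjusted p = 0.514) and Tox (0.31; limma, adjusted p = 0.589) came next. The median of the 29 was 0.14, and 22 had a higher OVA mean, beside 54.5% of all rows. Without PBS replicate 3 this median was 0.04, without OVA replicate 8 it was 0.09, and without PBS replicate 5 it was 0.21. Tbx21, the type 1 helper factor related to Eomes, had a log2 fold change of 0.41 (limma, adjusted p = 0.595), and Foxp3 of regulatory T cells 0.27 (limma, adjusted p = 0.661).

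**Figure D5:**
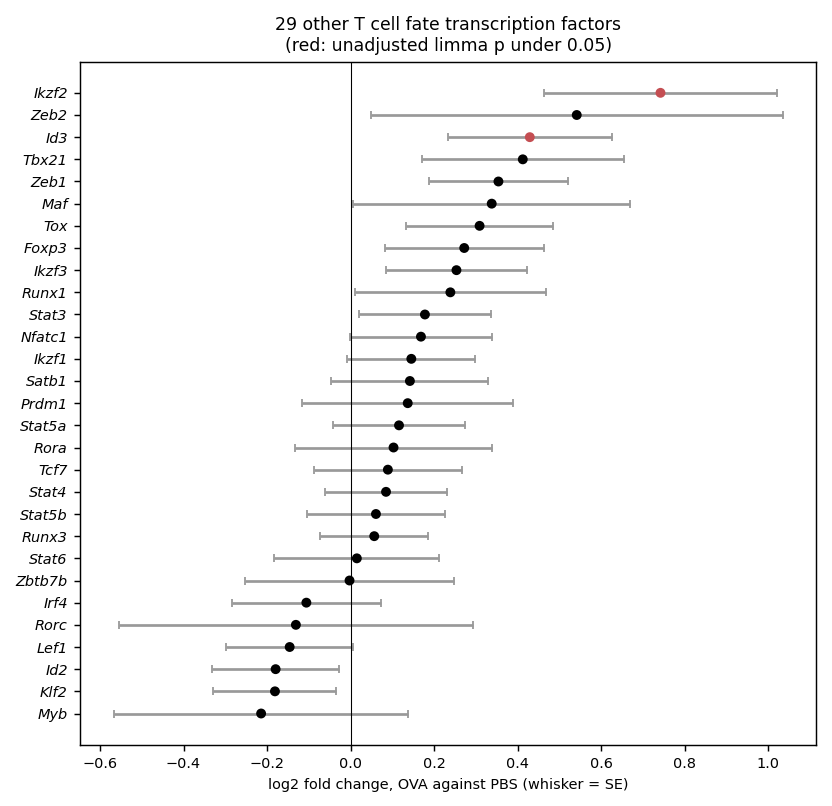
Log2 fold change in OVA against PBS libraries (horizontal axis, whiskers give the standard error) of 29 other T cell fate factors, sorted by size, with unadjusted limma p below 0.05 in red. Ikzf2 and Id3 are the red points, and 22 of 29 lie above 0.

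Targets and partners of Gata3, Eomes, Bcl6, Batf, Bhlhe40 and Foxo1 were read from lists. The lists held 4 firmly placed genes for Gata3, 9 for Eomes, 6 for Bcl6, 8 for Batf and Bhlhe40 together and 6 for Foxo1, with Il10 on 2 lists. Of these genes 2, Cxcr5 and Jun, reached an unadjusted p of 0.05 in limma, which 9.77% of all rows did. Of 8 listed type 2 helper genes downstream of Gata3, 4 were placed firmly and tested, and 0 reached an unadjusted p of 0.05 in limma. They were Il4 (log2 fold change 0.49; limma, adjusted p = 0.716), Ccr4 (0.47; limma, adjusted p = 0.668), Ccr8 (0.11; limma, adjusted p = 0.923) and Il10 (-0.24; limma, adjusted p = 0.942). Il4 averaged 20.1 normalized counts in PBS and 27.3 in OVA, near the low end of what these libraries measure. Of 9 cytotoxic and memory genes around Eomes, 0 reached that level and 5 had a higher OVA mean. Of the 9, Cxcr3 had the lowest p (0.29; limma, adjusted p = 0.566), followed by Gzma (0.65; limma, adjusted p = 0.610), Gzmb (0.48; limma, adjusted p = 0.644) and Ccl5 (-0.28; limma, adjusted p = 0.689).

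Of 6 firmly placed follicular helper genes around Bcl6, 1 was higher at an unadjusted p below 0.05, beside 7.12% of all rows, and 0 were called. It was Cxcr5, the receptor that guides cells into B cell follicles and that B cells express too, with 1131, 435, 493, 623 and 772 normalized counts in PBS and 866, 1049, 1127, 919 and 944 in OVA. The groups overlapped through PBS replicate 1, and the log2 fold change was 0.58 with a standard error of 0.22 (limma, adjusted p = 0.378). Pdcd1 (0.36; limma, adjusted p = 0.607), Icos (0.23; limma, adjusted p = 0.676) and Ascl2 (0.73; limma, adjusted p = 0.752) followed.

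Of 8 partners and targets of Batf and Bhlhe40 in activated cells, 1 was higher at an unadjusted p below 0.05, beside 7.12% of all rows, and 0 were called. It was Jun, an AP-1 subunit that pairs with Batf, at 15.8 normalized counts on average in PBS and 30.8 in OVA (log2 fold change 1.21 with a standard error of 0.52; limma, adjusted p = 0.464). Irf8 (0.35; limma, adjusted p = 0.725), Csf2 (0.63; limma, adjusted p = 0.748) and Batf3 (-0.63; limma, adjusted p = 0.802) were next. Of 6 genes that Foxo1 is known to maintain, 0 reached an unadjusted p of 0.05 in limma. Il7r, the receptor for interleukin 7, was at -0.30 (limma, adjusted p = 0.663), Klf2 at -0.18 (limma, adjusted p = 0.713), S1pr1 at 0.19 (limma, adjusted p = 0.792) and Tcf7 at 0.09 (limma, adjusted p = 0.899).

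The library kit does not mark strand, and the counting setting was not given in the sources used here. Reads of Bach2 and of Bach2os, Bach2it1 and Gm24371, which overlap it, therefore cannot be told apart, and the same holds for Bcl6 with Gm37419, Bhlhe40 with 0610040F04Rik, Eomes with Gm33460 and Ets1 with Gm27240. Overlapping genes also lie at Foxo1, Foxp1 and Gata3. Batf and Bcl11b have none in the annotation used.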

How the data were processed

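Spleen CD3+ T cell RNA of 5 PBS and 5 OVA libraries was sequenced by the authors, who aligned reads with STAR 2.6.1d, counted genes in Partek Flow 9.0 and applied median-ratio size factors. The deposited signal values are these normalized counts, with coordinates of mm10 (GRCm38). Values in each library were whole multiples of 1 step (at least 99.9% within 0.1), which returned the reads. Intervals cover the spread between libraries only.

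Names and values were out of step, and a hidden Markov model on GENCODE M21 annotation, with settings adjusted after its placements were seen but without use of the groups, placed 89.2% of names with a probability of at least 0.9. Normalized counts were tested with limma 3.58.1 (trend) as log2(value + 1), on which fold changes of low genes are understated, for rows with a mean of at least 1, in R 4.3.3, with Benjamini-Hochberg adjustment over all 20249 rows. edgeR 4.0.16 and DESeq2 1.42.0 were run on the recovered reads. Scripts were tested on simulated data. Alternatives were other pseudocounts, minimum means, scalings, tests and placements, and leaving out each library. Scaling to T cell markers and leaving out PBS replicate 3 and OVA replicates 6 and 10 were added after seeing the data.

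The 10 genes and all lists were chosen with earlier results of these data known. All 10 genes are named. Of every other gene list and of the stromal markers, the 4 firmly placed genes with the lowest p are named, and for Ets1 the 3 most similar profiles; other cell type lists are given as sums and counts. Tbx21, Foxp3, Col6a1, Jchain, Mzb1 and Sdc1 were added after their values were seen, and Xist and Y-linked genes serve only as a check of the libraries.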

Additional observations from a re-analysis of the deposited data

Results flagged for a closer look

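Batf in PBS replicate 1 stood far from the other PBS libraries. Its level there was 1202 normalized counts against 669.61 in the nearest library, so that the gap took up 0.874 of the range of the group, where the limit for 5 libraries is 0.71. Jun in OVA replicate 10 stood below the other OVA libraries, with 17.3 normalized counts against 32.4 in the nearest, a gap of 0.808 of the range. These were the 2 groups past the limit among 88 looked at, and chance alone takes about 1 in 20, or 4.4 of 88, past it. The 88 were genes named in the report, without Jchain, Mzb1 and Sdc1, and the summed cell type markers, in PBS and in OVA.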

How the results depend on the processing

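No paired analysis was possible because the PBS and OVA libraries share no replicate numbers. At the placed rows the 210 alternative values of the 10 genes all kept their direction and stayed above an adjusted p of 0.05, between 0.195 and 0.999, and 9 of 10 genes were higher in OVA in every fit. The alternative placement is part of these and reads the same rows as the main fit, so its agreement was fixed in advance. Foxo1 kept its direction only barely without PBS replicate 3, at 0.0004. The number of the 10 genes at an unadjusted p below 0.05, 3 as reported, was 4 without PBS replicate 1, 1 without OVA replicate 8 or OVA replicate 10, and 1 with libraries scaled to the T cell markers. The median log2 fold change of the 10 genes ranged from 0.154 (without PBS replicate 3) to 0.375 (without PBS replicate 4) with 1 library left out, and was -0.0361 with names taken as listed, which assigns the genes to other rows. Over all genes, 1 row was called, and 0 with a pseudocount of 0.1, with quantile normalization, with edgeR, without the 3 libraries that stood apart and with scaling to the T cell markers. DESeq2 called 168, and with 1 library left out between 0 and 135 were called, 135 without PBS replicate 5 and 2 without OVA replicate 9. The cause was not tested. Scaling each library to the same total moved the median of all rows to 0.15 and that of the 29 other fate factors from 0.14 to 0.249, and quantile normalization gave 0.219 for the latter. Depth limits Il4, Jun, Batf3, Il10, Ascl2 and Csf2, whose group means ran from 5.93 to 30.8 normalized counts.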
